A study of Homo sapiens with 9 samples.

Results

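The genes described here encode the enzymes that hydroxylate and cross-link collagen: the α subunits of prolyl 4-hydroxylase (P4HA1 and P4HA2), the lysyl hydroxylases (PLOD1, PLOD2 and PLOD3) and the lysyl oxidases (LOX, LOXL1, LOXL2, LOXL3 and LOXL4). They were taken by name, and all 10 were present among the 38021 gene names of the count table. RNA-seq was done on 786-O cells, an established human line from a clear cell renal cell carcinoma (ccRCC) that lacks functional VHL, so that HIF2α (EPAS1) accumulates without hypoxia. All cells were grown in DMEM with serum and carried a lentiviral pLKO.1 vector and were kept under puromycin. The short hairpin RNA was a control sequence (shControl), or was directed against ARNT (shARNT) or BMAL1 (shBMAL1, gene ARNTL in the table). Each group had 3 libraries and 1 hairpin, and no cloning of the infected cells is described. The comparison asks how much each partner of HIF2α contributes to the level of each transcript.

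Collagen chains are modified first inside the endoplasmic reticulum and then outside the cell. Prolyl 4-hydroxylases make the hydroxyproline that holds the collagen triple helix together, and lysyl hydroxylases make the hydroxylysine that carries sugars and gives stable cross-links; both need iron, oxygen, oxoglutarate and ascorbate. The secreted, copper-dependent lysyl oxidases turn lysine and hydroxylysine side chains of collagen and elastin into aldehydes, from which the cross-links form. Several of these genes are known to be induced by hypoxia through HIF, which binds DNA as a dimer of an α subunit with ARNT, while BMAL1 is best known as the partner of CLOCK at E-boxes.

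The promoters of 4 genes are shown as examples of the patterns described below, chosen after the values were seen: LOX and LOXL1 were lower in both knockdowns, P4HA1 was lower with shARNT, and PLOD2 was lower with shARNT and higher with shBMAL1. Each line gives the 250 bases before a RefSeq transcription start (GRCh38.p14), 5′ to 3′ on the strand of the gene. Capitals mark ACGTG or GCGTG, the core letters of the HIF motif, read on either strand. The windows are chr5:122078260-122078509 (minus strand) for LOX, the first of its 3 listed starts, chr3:146161185-146161434 (minus) for PLOD2, chr10:73096867-73097116 (minus) for P4HA1 and chr15:73926212-73926461 (plus) for LOXL1.
LOX: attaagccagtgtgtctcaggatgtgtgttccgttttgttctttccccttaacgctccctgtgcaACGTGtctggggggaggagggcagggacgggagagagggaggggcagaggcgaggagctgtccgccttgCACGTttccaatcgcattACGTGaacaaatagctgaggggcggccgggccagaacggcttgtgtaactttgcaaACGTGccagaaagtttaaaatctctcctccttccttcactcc
PLOD2: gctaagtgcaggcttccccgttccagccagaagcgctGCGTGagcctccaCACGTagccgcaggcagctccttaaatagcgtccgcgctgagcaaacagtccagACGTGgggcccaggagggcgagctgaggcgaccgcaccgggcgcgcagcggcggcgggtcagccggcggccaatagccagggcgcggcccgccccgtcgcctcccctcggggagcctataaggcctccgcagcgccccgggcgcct
P4HA1: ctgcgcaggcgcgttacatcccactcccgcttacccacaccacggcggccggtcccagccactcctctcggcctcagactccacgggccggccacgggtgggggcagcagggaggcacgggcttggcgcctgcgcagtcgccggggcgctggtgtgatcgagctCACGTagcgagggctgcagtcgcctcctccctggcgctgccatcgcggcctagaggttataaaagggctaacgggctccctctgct
LOXL1: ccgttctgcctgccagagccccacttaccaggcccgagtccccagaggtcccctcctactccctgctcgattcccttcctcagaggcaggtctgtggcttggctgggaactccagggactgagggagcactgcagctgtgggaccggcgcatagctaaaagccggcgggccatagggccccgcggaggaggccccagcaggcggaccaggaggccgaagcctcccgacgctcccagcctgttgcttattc
The LOX window held 4 such sites, which began 185, 116, 98 and 42 bases before the start. The PLOD2 window held 3, at 213, 200 and 146 bases, and the P4HA1 window 1, at 86 bases. None was found in the LOXL1 window.

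RefSeq windows were matched for 9 of the 10 genes, and the set of windows used here held none for LOXL2. Of the 9 genes, 5 held ACGTG or GCGTG in at least 1 window (LOX, PLOD1, PLOD2, P4HA1 and LOXL3), against 47.4% of the 27305 genes with a window. Counted by window, 7 of 12 held a site, against 43.2% of 35116 windows of the same length. The 7 include LOX windows 1, 2 and 3. LOX windows 2 and 3 overlap and hold the same sites. These sites lay 68 and 14 bases before the start in window 2, and 117 and 63 in window 3. The same sites thus entered the count by window in both, and LOX weighs more there than in the count by gene. The letters ACGTG alone stood in 18.5% of all windows and GCGTG in 32.2%, so a match is common. The E-box CACGTG, which contains ACGTG, stood in 6.34% of all windows and in none of the 12. A match describes these letters only, and binding was not measured in these data.

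Libraries held 33793043 to 35444731 reads. ARNT had 2352 ± 184 normalised read counts (reads divided by the size factor of the library) in the control and 1225 ± 23.2 with shARNT, and ARNTL had 761 ± 32.0 in shControl and 326 ± 29.2 with shBMAL1 (SD, n = 3), so each targeted transcript was lower in its own group. ARNTL was also lower with shARNT (633 ± 57.8) and ARNT with shBMAL1 (2014 ± 76.2), but the first call was lost without shControl 2 or shARNT 3 (DESeq2 adjusted p 0.15 and 0.22) and the second without shControl 2 or shBMAL1 2 (0.162 and 0.109). All 8 renal epithelial markers of the cell type check had a mean of at least 50 counts, among them PAX8 and EPAS1, and their sum was 109774 to 116943 in shControl, 112185 to 120932 with shARNT and 131253 to 144836 with shBMAL1, where it lay above both other groups. Of the fibroblast markers, 2 of 8 passed a mean of 50 counts (COL1A1 and LUM) and COL1A2 was at 0, with summed levels of 241 to 304 in shControl, 215 to 232 with shARNT and 380 to 432 with shBMAL1. CDH5 (endothelial) and CD3E (T cell) were also at 0, no endothelial marker of 5 and 1 leukocyte marker of 5 (CD68) passed that mean, and the leukocyte sum was 7125 to 7900, 6734 to 7355 and 5331 to 6739. Mitochondrial genes took 6.21% ± 0.854 of reads in shControl, 8.06% ± 0.604 with shARNT and 9.33% ± 0.538 with shBMAL1 (SD, n = 3), and the part of this shift in any result was not tested.

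Most of these transcripts were lower in the ARNT knockdown. With shARNT, 7 of the 9 genes tested were called lower (P4HA1, P4HA2, PLOD2, PLOD3, LOX, LOXL1 and LOXL2) and only PLOD1 was called higher, beside 19.0% of all 15164 genes called lower and 16.5% called higher. A call means an adjusted p under 0.1 (DESeq2 Wald test, Benjamini-Hochberg). The median log2 fold change of the 9 genes was −0.48, beside 0.0028 over all genes tested. With shBMAL1, 4 genes were called lower (P4HA2, PLOD3, LOX and LOXL1), 2 higher (PLOD1 and PLOD2) and 3 did not pass (P4HA1, LOXL2 and LOXL3), beside 19.4% of 19036 genes called lower and 17.4% called higher, with a median of −0.09 beside 0.015. Both comparisons used the same shControl libraries, so values of the knockdowns are given side by side and differences between them rest on the direct test of shBMAL1 against shARNT. In that test 5 genes were higher (P4HA1, P4HA2, PLOD2, LOX and LOXL2) and 1 lower (PLOD3) with shBMAL1, beside 17.3% and 18.0% of 18181 genes, and the median was 0.33 beside 0.0094. The labels call the 3 libraries of each group biological replicates but do not say that they came from separate infections. The p values therefore measure the spread between these samples. In RNA from whole cultures, fewer cells of a type and less RNA per cell cannot be told apart.

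**Figure D1:**
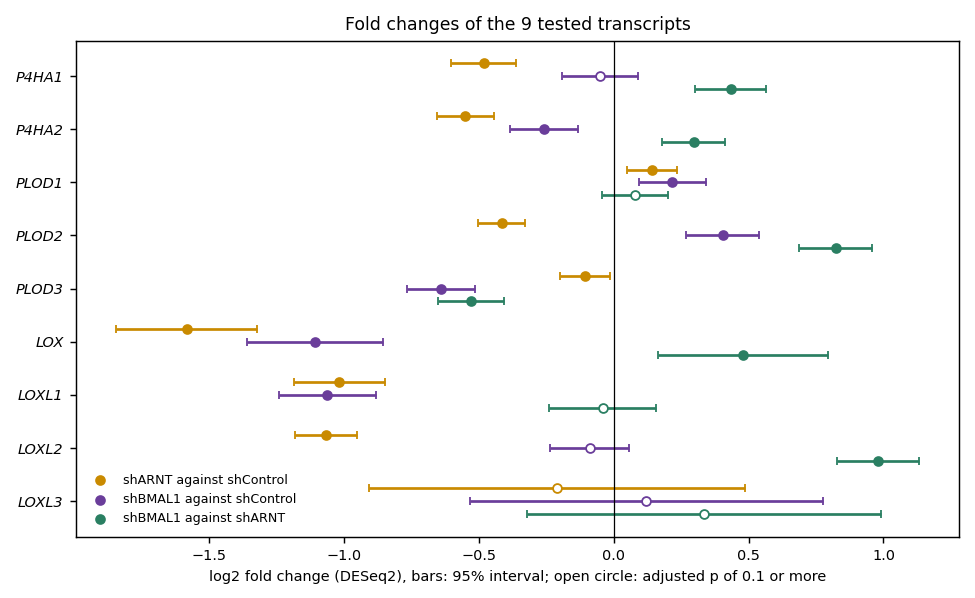
log2 fold change (x axis, DESeq2) of the 9 tested genes for each knockdown against the control and for the knockdowns against each other; points are estimates, bars 95% intervals, and open circles an adjusted p of 0.1 or more. LOX lies furthest to the left with shARNT, at −1.58. With shBMAL1 the intervals of LOX (−1.11) and LOXL1 (−1.06) overlap. PLOD2 lies on opposite sides of 0 in the 2 knockdowns.

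P4HA1 and P4HA2, α subunits of prolyl 4-hydroxylase, fell with shARNT, and P4HA2 also fell with shBMAL1. P4HA1, a catalytic α subunit (GRCh37, chromosome 10, 74766975 to 74856732, minus strand), had 4386, 4641 and 4086 normalised read counts in the control, 3030, 3200 and 3145 with shARNT and 4117, 4141 and 4414 with shBMAL1. Every shARNT library lay below every other library, while the shControl and shBMAL1 ranges overlapped. Its log2 fold change was −0.48 (SE 0.06, adjusted p 2.31e-13, DESeq2) with shARNT, where P4HA1 fell by 28.3%. With shBMAL1 it was −0.05 (SE 0.07, adjusted p 0.658, 95% interval −0.19 to 0.09). The direct difference was 0.43 (SE 0.07, adjusted p 1.62e-09), so the 2 knockdowns differed at this gene.

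P4HA2, the second catalytic α subunit (chromosome 5, 131525840 to 131631008, minus strand), had 6591, 7039.5 and 7246 normalised read counts in the control, 4708, 4791 and 4727 with shARNT and 5944, 5862 and 5683 with shBMAL1. The 3 groups did not overlap, with shARNT lowest and shBMAL1 between. On the log2 scale the change was −0.55 (SE 0.05, adjusted p 1.09e-22) with shARNT and −0.26 (SE 0.06, adjusted p 0.000392) with shBMAL1, and the direct difference was 0.30 (SE 0.06, adjusted p 8.17e-06). An exon of the antisense transcript P4HA2-AS1 overlaps the gene, and it is not stated whether counting used strand. P4HA2-AS1 averaged 519, 333 and 423 counts in shControl, shARNT and shBMAL1, the same order of groups as P4HA2, and its part in the P4HA2 values was not tested. P4HB, the shared β subunit that holds the α subunits in a soluble tetramer, had smaller estimates: −0.14 (SE 0.05, adjusted p 0.00738) with shARNT and −0.09 (SE 0.06, adjusted p 0.261) with shBMAL1. P4HA3, a further α subunit of low level that belongs to the maturation list, was called lower with shARNT (−0.89, SE 0.39, adjusted p 0.0715) and with shBMAL1 (−0.81, SE 0.39, adjusted p 0.0999), and 6 and 7 of 12 alternatives, in that order, lost the call. Among these were the fits without shControl 1, shControl 2 or libraries 2 or 3 of the knockdown (adjusted p 0.115 to 0.348 and 0.192 to 0.393). Its normalised counts were 33.4 to 59.4 with shControl, 16.9 to 29.2 with shARNT and 21.5 to 34.8 with shBMAL1, so that shBMAL1 overlapped shControl.

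**Figure D2:**
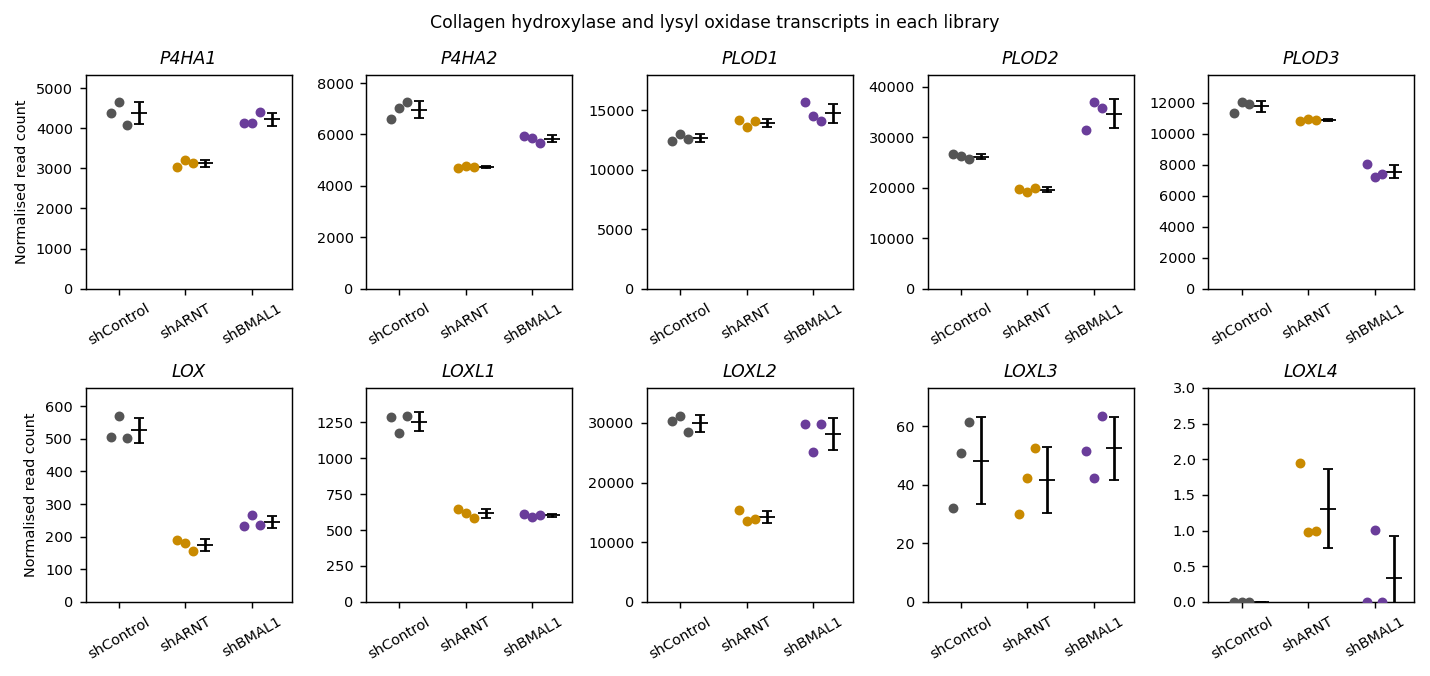
Normalised read counts (y axis, linear and starting at 0 in each panel) of the 10 genes in the 3 libraries of each group, with the mean and SD beside the points. P4HA1 and LOXL2 drop with shARNT alone, LOX and LOXL1 drop in both knockdowns, and LOXL4 stays at or under 2 counts.

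The 3 lysyl hydroxylases each moved in their own way. PLOD2, which hydroxylates lysines in the collagen telopeptides (chromosome 3, 145752926 to 145881512, minus strand), had 26746, 26211 and 25643 normalised read counts in the control. It had 19788, 19084.5 and 19961 with shARNT and 31463, 36916 and 35748 with shBMAL1. The groups did not overlap, and those of the knockdowns lay on opposite sides of shControl. By DESeq2 the log2 fold change was −0.41 (SE 0.04, adjusted p 1.03e-18) with shARNT and 0.40 (SE 0.07, adjusted p 6.02e-08) with shBMAL1. The direct difference of 0.82 (SE 0.07, adjusted p 1.97e-30) made PLOD2 1.77-fold higher with shBMAL1 than with shARNT.

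PLOD3, which also carries the glycosyltransferase activity that adds sugars to hydroxylysine (chromosome 7, 100849258 to 100861701, minus strand), had 11319.8, 12004 and 11907.5 normalised read counts in the control. It had 10835, 10936 and 10878 with shARNT and 8019, 7202 and 7424 with shBMAL1. The shBMAL1 libraries stood well below all others, and the shARNT libraries lay narrowly below shControl. Its log2 change was −0.64 (SE 0.06, adjusted p 3.1e-21) with shBMAL1, where PLOD3 fell by 35.8%, and −0.53 (SE 0.06, adjusted p 8.97e-16) with shBMAL1 against shARNT. With shARNT it was −0.11 (SE 0.05, adjusted p 0.0712). That call was lost with edgeR (adjusted p 0.102), with a fit of all 9 libraries (0.142) and when any library but the first of shControl was left out (adjusted p 0.159 to 0.245). ZNHIT1, which shares exon sequence with PLOD3 on the opposite strand, averaged 4946, 5084 and 5013 counts in the control, shARNT and shBMAL1.

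PLOD1, which hydroxylates lysines in the collagen helix (chromosome 1, 11994262 to 12035595, plus strand), was the only 1 of the 9 tested enzymes that was higher in both knockdowns. It had 12368, 13017 and 12554.5 normalised read counts in the control, 14131, 13569.5 and 14088 with shARNT and 15638.5, 14471 and 14083 with shBMAL1. Both knockdown groups lay above shControl and overlapped each other. The fitted log2 change was 0.14 (SE 0.05, adjusted p 0.0106) with shARNT and 0.22 (SE 0.06, adjusted p 0.00282) with shBMAL1. The direct difference was 0.08 (SE 0.06, adjusted p 0.372), with a 95% interval from −0.04 to 0.20.

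Within a library, reads of 2 genes can be set against each other without any scaling between libraries. These ratios were chosen after the values were seen, and 3 against 3 libraries cannot give an exact two-sided permutation p below 0.1. There were 2.23 ± 0.113 PLOD2 reads per PLOD3 read in shControl, 1.80 ± 0.0495 with shARNT and 4.62 ± 0.624 with shBMAL1 (SD, n = 3), with no overlap and an exact permutation p of 0.1 for each pair of groups. PLOD2 reads per PLOD1 read were 2.07 ± 0.0790, 1.41 ± 0.00836 and 2.37 ± 0.308 in the same order. This ratio was lower in every shARNT library than elsewhere (exact p 0.1), while shBMAL1 overlapped shControl (exact p 0.4, n = 3). P4HA1 reads per P4HA2 read were 0.630 ± 0.0570, 0.659 ± 0.0133 and 0.725 ± 0.0451, and shBMAL1 lay above both other groups (exact p 0.1, n = 3).

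**Figure D3:**
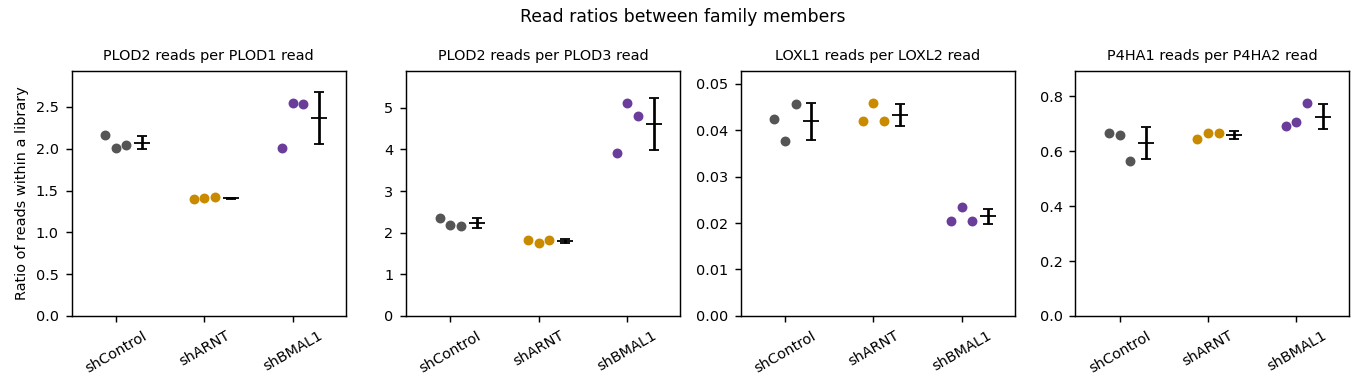
Ratio of reads of 2 genes within each library (y axis, linear, from 0), by group, with mean and SD. PLOD2 per PLOD3 rises to 4.62 with shBMAL1, and LOXL1 per LOXL2 falls to 0.0214 there.

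LOX itself, the founding lysyl oxidase, fell furthest with shARNT. LOX (chromosome 5, 121398890 to 121414108, minus strand) had 506, 571 and 502 normalised read counts in the control, 191, 181 and 155 with shARNT and 234, 266 and 235 with shBMAL1. The 3 groups did not overlap, and both knockdowns lay below shControl. The log2 fold change was −1.58 (SE 0.13, adjusted p 2.01e-30) with shARNT, where LOX fell by 66.6% and ranked 79 by fold change among the 2878 genes called lower. With shBMAL1 it was −1.11 (SE 0.13, adjusted p 2.6e-16), where it fell by 53.5%. The direct difference was 0.48 (SE 0.16, adjusted p 0.0128) and was lost without the third shARNT library (0.40, adjusted p 0.111). SRFBP1 shares exon sequence with LOX on the opposite strand and averaged 398, 490 and 374 counts in the control, shARNT and shBMAL1, and its part in the LOX values was not tested.

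LOXL1, the family member tied to elastic fibres (chromosome 15, 74218330 to 74244478, plus strand), fell in both knockdowns, with estimates close to each other. It had 1285, 1178 and 1294 normalised read counts in the control, 648, 619.7 and 585 with shARNT and 609.6, 588 and 606 with shBMAL1. Both knockdown groups lay at close to the same level, far below shControl, and overlapped each other. Its log2 fold change was −1.02 (SE 0.09, adjusted p 4.49e-30) with shARNT and −1.06 (SE 0.09, adjusted p 3.04e-29) with shBMAL1. The direct difference was −0.04 (SE 0.10, adjusted p 0.828), with a 95% interval from −0.24 to 0.16. LOXL1-AS1 overlaps an exon on the opposite strand and averaged 502, 369 and 435 counts, and 7 of the 9 LOXL1 values were fractional estimates.

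LOXL2, a secreted lysyl oxidase active on collagen IV (chromosome 8, 23154410 to 23282841, minus strand), fell with shARNT alone. It had 30309.8, 31206 and 28421 normalised read counts in the control, 15448, 13501 and 13959.6 with shARNT and 29750, 25134.5 and 29781 with shBMAL1. Every shARNT library lay far below the rest, and shBMAL1 overlapped shControl, with its second library the lowest of the 6. On the log2 scale the change was −1.06 (SE 0.06, adjusted p 1.33e-71) with shARNT, where LOXL2 fell by 52.2%. With shBMAL1 it was −0.09 (SE 0.08, adjusted p 0.417), with a 95% interval from −0.24 to 0.06. The direct difference was 0.98 (SE 0.08, adjusted p 7.11e-34), the largest among the 9 enzymes tested. All 9 LOXL2 values were fractional estimates, and ENTPD4, which shares exon sequence on the same strand, averaged 1057, 1159 and 1031 counts in the 3 groups.

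LOXL3, a further lysyl oxidase-like enzyme (chromosome 2, 74759385 to 74782817, minus strand), had low counts with a wide spread. It had 32.2, 51.0 and 61.7 normalised read counts in the control, 30.2, 42.2 and 52.7 with shARNT and 51.6, 42.3 and 63.6 with shBMAL1. All groups overlapped. By DESeq2 the log2 fold change was −0.21 (SE 0.36, adjusted p 0.726, 95% interval −0.91 to 0.49) with shARNT and 0.12 (SE 0.33, adjusted p 0.841, 95% interval −0.53 to 0.77) with shBMAL1, so no change was detected and the intervals are wide. HTRA2 and DOK1 share exon sequence with LOXL3 on the opposite strand at far higher counts (2094 and 844 on average in shControl). LOXL4 (chromosome 10, 100007447 to 100027951, minus strand) had 0 reads in each shControl library, 2, 1 and 1 with shARNT and 0, 1 and 0 with shBMAL1. All are below the 3 counts that an observed 0 allows, so LOXL4 was not tested and no fold is given.

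Divided by transcript length, LOXL2 and PLOD2 were the most abundant of the 10 in shControl, with 229.6 ± 10.9 and 199 ± 6.03 RPKM (reads per kilobase of transcript, scaled to library size; SD, n = 3). PLOD1 (121 ± 2.04) and PLOD3 (119 ± 2.41) came next and did not differ beyond their spread, and P4HA1 (45.4 ± 2.79) and P4HA2 (43.6 ± 1.72) also overlapped. LOXL1 (15.2 ± 0.912), LOX (2.95 ± 0.192) and LOXL3 (0.372 ± 0.113) followed in clear steps. With shARNT, LOXL2 dropped from rank 1 to rank 4 (111 ± 7.89), within the spread of PLOD3 (112 ± 0.627), behind PLOD2 (152 ± 3.38) and PLOD1 (136 ± 2.88). With shBMAL1, PLOD2 (271 ± 26.2) led LOXL2 (221 ± 20.3), and PLOD3 (78.1 ± 3.27) fell further behind PLOD1 (144 ± 5.54).

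**Figure D4:**
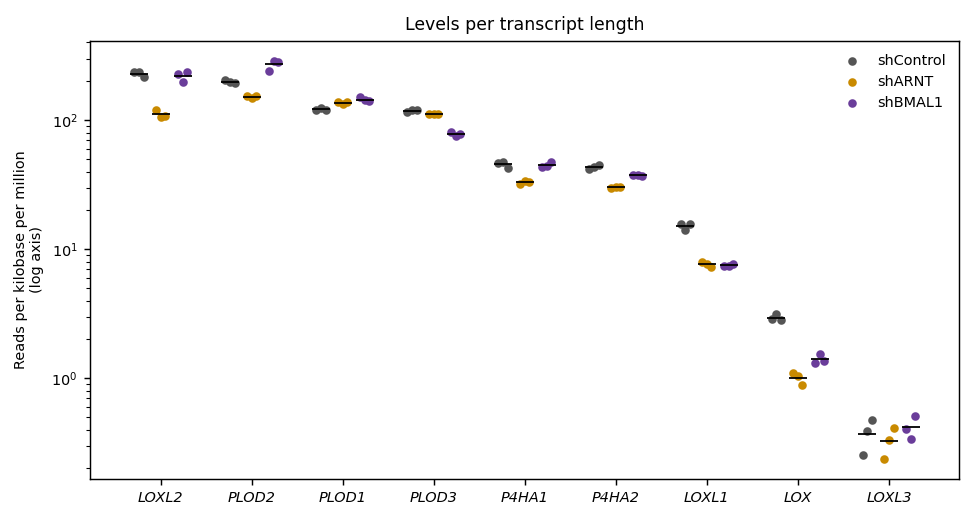
RPKM by transcript length (y axis, log scale) of 9 genes in every library, by group, with bars at the group means; LOXL4 is left out because it was at 0 in 5 libraries. LOXL2 falls from 229.6 in shControl to 111 with shARNT, and PLOD2 reaches 271 with shBMAL1.

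The make-up of each family followed from these levels. LOXL2 supplied 92.5% of lysyl oxidase reads per length in shControl and with shARNT and 95.9% with shBMAL1. LOXL1 supplied 6.14%, 6.35% and 3.26% and LOX 1.19%, 0.833% and 0.618% in shControl, shARNT and shBMAL1. There were 0.0419 ± 0.00392 LOXL1 reads per LOXL2 read in shControl, 0.0433 ± 0.00228 with shARNT and 0.0214 ± 0.00171 with shBMAL1 (SD, n = 3). The ratio with shARNT overlapped that of the control (exact permutation p 0.8, n = 3), while shBMAL1 lay below both groups (exact p 0.1). Among lysyl hydroxylases PLOD2 supplied 45.4%, 38.0% and 54.8% of reads per length in the same order, and PLOD3 27.0%, 28.0% and 15.9%.

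The other genes of collagen maturation were a list of 22 (further hydroxylases, chaperones, glycosyltransferases and propeptide proteases). Calls were mainly lower with shARNT and in both directions with shBMAL1. With shARNT 11 of 22 were called lower and 3 higher, beside the 19.0% and 16.5% of all genes given above, with a median log2 fold change of −0.20. The higher share was thus not above the background. ADAMTS2, which removes the amino-terminal propeptide, fell most (−1.57, SE 0.28, adjusted p 2.4e-07). PCOLCE2, an enhancer of procollagen C-proteinase (−0.69, SE 0.14, adjusted p 5.99e-06), and FKBP10, a prolyl isomerase that assists telopeptide lysyl hydroxylation (−0.55, SE 0.04, adjusted p 1.98e-32), also fell. TLL2, a protease of the BMP1 family, was called higher at 0.55 (SE 0.26, adjusted p 0.0964), a call that most alternatives did not keep. With shBMAL1 8 were lower and 7 higher, beside 19.4% and 17.4% of all genes, with a median of −0.05. Of those with a mean of at least 50 counts, ADAMTS2 (−1.95, SE 0.29, adjusted p 2.68e-10), TLL2 (−1.12, SE 0.32, adjusted p 0.00252), FKBP14 (−0.54, SE 0.09, adjusted p 4.69e-08) and the collagen chaperone SERPINH1 (−0.46, SE 0.08, adjusted p 4.01e-08) fell most. FKBP14 also fell with shARNT (−0.54, SE 0.06, adjusted p 8.32e-17), while SERPINH1 did not pass the test there (−0.08, SE 0.06, adjusted p 0.352) and differed between the knockdowns (−0.37, SE 0.07, adjusted p 1.88e-06). The 15 calls with shBMAL1 dropped to between 8 and 12 when any library was left out and to 9 with the replicate number as a block.

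In the direct comparison 4 maturation genes were lower and 8 higher with shBMAL1 than with shARNT, beside 18.0% and 17.3% of all genes, so the lower share was at the background. FKBP10 (0.72, SE 0.07, adjusted p 7.06e-23), the procollagen C-proteinase BMP1 (0.63, SE 0.07, adjusted p 3.39e-19) and the prolyl isomerase PPIB (0.62, SE 0.06, adjusted p 7.8e-22) were higher. TLL2 was lower (−1.66, SE 0.29, adjusted p 9.06e-08). FKBP10 had 18121.7 ± 447 normalised read counts in the control, 12364 ± 65.4 with shARNT and 20369 ± 1820 with shBMAL1 (SD, n = 3). The control and shBMAL1 libraries overlapped, and its call with shBMAL1 (0.17, SE 0.07, adjusted p 0.0592) was lost at an adjusted p under 0.05 and without any library but the second of shBMAL1.

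The substrates of these enzymes were in part not expressed. Of 14 collagen chains, elastic fibre proteins and partners, COL1A2 and FBLN5 had 0 reads in all libraries and COL3A1 at most 1. ELN (elastin) was near the floor, at 2.92 to 9.07 normalised read counts. With shARNT 5 of 9 tested were lower and 2 higher (median −0.21), beside 19.0% and 16.5% of all genes. With shBMAL1 3 of 11 were lower and 5 higher (median 0.15), beside 19.4% and 17.4%. This total of 8 fell to 5 at an adjusted p under 0.05. COL5A1 and ELN had no adjusted p with shARNT against shControl, so the 2 comparisons cover unlike gene sets. COL5A1, 1 of the 5 called higher (DESeq2 adjusted p 0.0601), averaged 6.37, 1.31 and 17.9 counts in shControl, shARNT and shBMAL1. COL6A3, a collagen VI chain, fell with shARNT (−0.74, SE 0.06, adjusted p 4.51e-34), as did EFEMP2, a fibulin that guides LOX to elastin (−0.59, SE 0.07, adjusted p 6.73e-17). FN1 (fibronectin) rose there (0.47, SE 0.07, adjusted p 3.43e-11). COL6A1 rose by 0.57 with shARNT (SE 0.07, adjusted p 1.77e-16) and by 0.57 with shBMAL1 (SE 0.08, adjusted p 5.17e-13). COL5A2 fell with shBMAL1 (−1.38, SE 0.12, adjusted p 6.69e-28) and had a change of −0.07 with shARNT (SE 0.10, adjusted p 0.643), with a direct difference of −1.30 (SE 0.12, adjusted p 3.42e-25). COL6A2 (0.35, SE 0.08, adjusted p 9.01e-05) and EFEMP2 (0.23, SE 0.10, adjusted p 0.062) were also called higher with shBMAL1, but the EFEMP2 call was lost at an adjusted p under 0.05 and without the first shBMAL1 (0.08, adjusted p 0.429), shControl 1 (0.177) or shControl 3 library (0.178). In the direct comparison 2 of 11 were lower, FN1 (−0.32, SE 0.07, adjusted p 0.000115) besides COL5A2. Beside 18.0% of all genes, that share was at the background. Called higher were 5, beside 17.3%, with EFEMP2 at 0.82 (SE 0.10, adjusted p 1.41e-14) and COL6A3 at 0.58 (SE 0.07, adjusted p 1.4e-15). COL5A1 was also among these 5, at 0 to 2.92 counts with shARNT. It was tested only in comparisons that include shBMAL1, the group where it was highest.

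Genes that handle copper and ascorbate, the cofactors of these enzymes, were a list of 6 (5 transporters and the copper chaperone ATOX1), of which 2 were lower with shARNT, 1 lower and 2 higher with shBMAL1, and 2 higher with shBMAL1 than with shARNT. Counts of 1 or 2 among 6 genes are too few to set apart from the shares of all genes called (19.0% lower and 16.5% higher with shARNT, 19.4% and 17.4% with shBMAL1, 18.0% and 17.3% between the knockdowns). SLC31A1, the copper importer, was lower with shARNT (−0.44, SE 0.08, adjusted p 1.38e-07) and with shBMAL1 (−0.38, SE 0.08, adjusted p 1.63e-05). Its levels were 1611 ± 53.1 normalised read counts in the control, 1183 ± 86.3 with shARNT and 1235 ± 58.9 with shBMAL1 (SD, n = 3). SLC23A2, an ascorbate transporter, was the other gene called with shARNT (−0.27, SE 0.09, adjusted p 0.0122), a call lost without the second shControl (adjusted p 0.111) or the third shARNT library (0.109). The second ascorbate transporter, SLC23A1, rose with shBMAL1 from 37.2 ± 9.12 to 172 ± 37.8 counts (2.21, SE 0.26, adjusted p 1.51e-15) and was also higher there than with shARNT (2.51, SE 0.27, adjusted p 2.41e-19). ATP7A, which loads copper onto secreted enzymes, was called higher with shBMAL1 against shControl (0.30, SE 0.09, adjusted p 0.00501) and against shARNT (0.20, SE 0.09, adjusted p 0.0782), the latter lost at an adjusted p under 0.05, with the replicate number as a block (adjusted p 0.161) and without any library but the first of shBMAL1 (0.156 to 0.269).

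**Figure D5:**
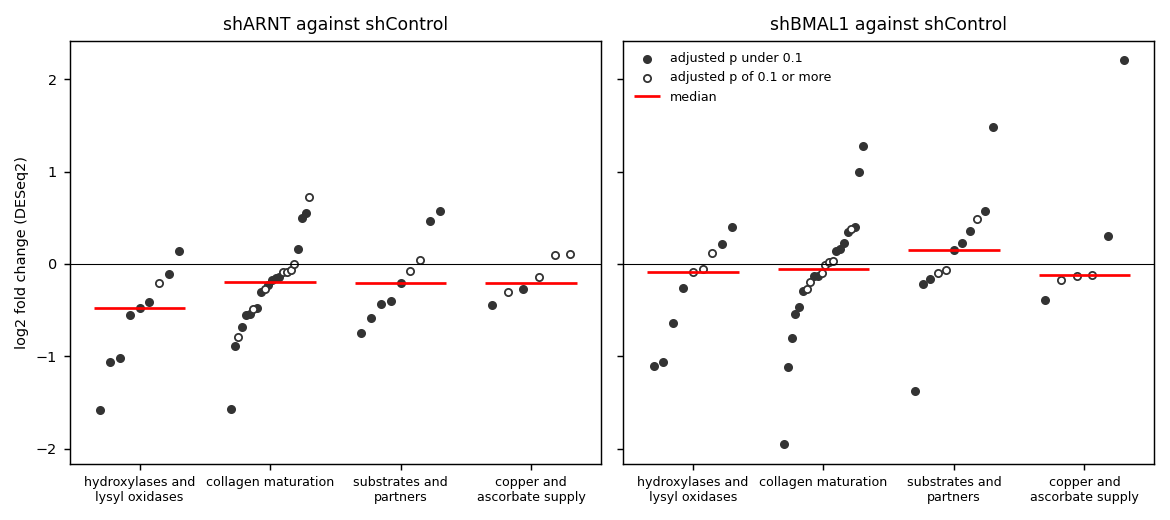
log2 fold change (y axis, DESeq2) of each tested gene of the hydroxylase and lysyl oxidase group and of the collagen maturation, substrate and cofactor lists, with shARNT (left) and shBMAL1 (right) against shControl; filled points have an adjusted p under 0.1 and red bars are medians. The medians with shARNT run from −0.48 for the hydroxylases and lysyl oxidases to −0.20 for collagen maturation.

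Among 11823 genes that averaged 100 or more normalised read counts, the genes whose log2 counts over the 9 libraries tracked each enzyme most closely were ranked by Pearson's r, given as a description because the libraries form 3 groups and r mainly follows the group means. P4HA1 was most like ARG2 (r = 0.986), CD74 (0.984) and DCAKD (0.979), and LOXL2 was most like CD74 (0.992), ADM (0.986) and SYTL3 (0.986). LOX was most like TGM2 (0.989), a transglutaminase that also cross-links matrix proteins, then TANC2 (0.989) and GJB2 (0.986). PLOD2 was most like LOC100507487 (0.985), the endoplasmic reticulum chaperone HSP90B1 (0.981) and FAM107B (0.981). TGM2 had a mean of 41650 normalised read counts in the control, 12248 with shARNT and 18789 with shBMAL1, the same order of groups as LOX.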

How the data were processed

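RNA-seq of 786-O cells covered 3 libraries each of shControl, shARNT and shBMAL1. The authors deposited estimated counts, as total reads per gene, with 0.009 in place of 0 (46.3% of cells, set to 0 here). The libraries were stranded per the labels. The methods state that paired-end reads were aligned by SeqMan NGen (GRCh37) and gene totals came from ArrayStar; the submitters' processing notes instead name hg38, STAR and DESeq2, so the build behind the counts is uncertain. The annotation and strand setting of the counting were not given in the sources used here. Rows of the same name (53) were added, and fractional values (6.14% of values above 0) were rounded. Each pair of groups was fitted in DESeq2 1.42.0 (R 4.3.3; 6 libraries, median-of-ratios size factors, Wald test, independent filtering at 0.1, Benjamini-Hochberg over all genes, two-sided), a procedure tested on simulated data. Normalised read counts used size factors over all 9 libraries. Values per kilobase used the canonical GENCODE transcript on GRCh37, and positions are on that build, 1-based, except promoters. No 2 libraries of a group agreed within sampling noise (chi-square per degree of freedom 7.60 to 17.6). Alternatives were edgeR 4.0.16 (quasi-likelihood test), TMM factors, at least 10 counts in 3 libraries, an adjusted p under 0.05, all 9 libraries in a joint fit, a replicate block, and leaving out each library. Named were the 10 enzymes, the targets, up to 4 called genes per list with the largest change (mean of at least 50 counts), and the 3 genes most like P4HA1, PLOD2, LOX and LOXL2. The enzymes and lists were chosen with earlier results of these data known. Outside this rule, and after their values were seen, COL1A2, COL3A1, COL5A1, ELN and FBLN5 are named for few or no reads. Likewise named are P4HB and P4HA3 as further subunits of the enzyme and ATOX1 as a list member. Genes that overlap an enzyme, and listed genes in a comparison that did not select them, were also added.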

Additional observations from a re-analysis of the deposited data

Results flagged for a closer look

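The effects of the 2 knockdowns were compared by a direct test of shBMAL1 against shARNT (DESeq2, Benjamini-Hochberg), and 6 of the enzymes differed. The log2 fold change was 0.98 for LOXL2, 0.82 for PLOD2, 0.48 for LOX, 0.43 for P4HA1 and 0.30 for P4HA2, all higher in shBMAL1, and −0.53 for PLOD3, which was lower there. PLOD2 was the only 1 of the 9 tested enzymes whose changes from shControl passed the test in both knockdowns with opposite signs. Each group had 1 hairpin, so effects of the hairpin and of the loss of its target cannot be told apart.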

How the results depend on the processing

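Of 324 values of the enzymes under alternatives, 311 kept their direction and call, and 23 of 27 enzyme results did so throughout. The 10 lost calls were those of PLOD3 in shARNT (also lost with the replicate block, adjusted p 0.143, and at an adjusted p under 0.05) and of LOX in the direct comparison, both given above. With a library left out, the enzymes called lower in shARNT numbered 6 to 7 and those higher in the direct comparison 4 to 5. LOXL3 changed sign in 3 such fits: its log2 fold changes ran from −0.43 to 0.0053 in shARNT and from −0.10 to 0.33 in shBMAL1. For the lists, maturation genes called in shBMAL1 went from 15 to 9 with the replicate block and to 8 to 12 with a library left out, lowest without shControl 1 or 3 or shBMAL1 3. Substrates there went from 8 to 5 at an adjusted p under 0.05 and to 5 to 7 with a library left out, lowest without shControl 1 or 3 or shBMAL1 1 or 2. Copper and ascorbate genes went from 2 to 1 in the direct comparison at an adjusted p under 0.05 and with the replicate block, and to 1 to 3 with a library left out; in shARNT they numbered 1 to 2, and 1 without shControl 2 or shARNT 3. Of 792 values of other named genes 720 held, 62 lost and 1 gained a call, and 9 changed sign: COL6A2 in shARNT (−0.0098 to 0.099 with a library left out), COL6A1 (−0.054 to 0.053), FKBP14 (−0.051 to 0.11, and −0.0016 with the replicate block), and P4HA3 (−0.15 to 0.22) in the direct comparison. The replicate block left 6 enzymes called lower with shARNT and changed no other enzyme call. Same-numbered libraries did not deviate together (correlations −0.15 to 0.11, beside −0.27 to 0.24 for different numbers). With 3 libraries per group this cannot show whether the numbers mark a pairing. No scaling moved the median of well-counted genes by over 0.1. The causes were not tested. LOXL4 had too few reads for a test.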
